A study of Homo sapiens with 6 samples.

Results

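The genes examined here encode DNA topoisomerases, the enzymes that repair their trapped complexes, and the chromosome-coating protein Ki-67. They were TOP1, TOP2A, TOP2B, TOP3B, TDP1, TDP2 and MKI67, chosen by name with earlier results of these data known. All 7 were measured among the 19775 genes tested. Every probe set that the array's annotation assigned to 1 of these symbols alone was taken, 16 of the 54613 probe sets that were not controls, and each gene is given by the one with the highest mean over the 6 arrays. The cells were KOPTK1, a human cell line of T-cell acute lymphoblastic leukaemia. They were kept for 48 h in 1 µM PD0332991 (n = 3), an inhibitor of the kinases CDK4 and CDK6 also known as palbociclib, or in vehicle (n = 3). The submitters call the replicates biological triplicates, and total RNA of each was hybridised to a one-colour Affymetrix array. The design allows 1 comparison, PD0332991 against vehicle, and for these genes it asks how the RNAs of the cell's topoisomerase machinery differ after CDK4/6 inhibition.

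Topoisomerases relieve the twisting and tangling of DNA by cutting it, passing strands through the break and sealing it again, with the enzyme bound to the cut end through a tyrosine. TOP1 cuts a single strand and relaxes DNA around moving polymerases, whereas TOP2A and TOP2B cut both strands and can untangle chromosomes. TOP2A is the form of dividing cells and is needed to separate sister chromatids, and TOP2B is also made in cells that do not divide. If an enzyme stays trapped on DNA, as with the leukaemia drugs etoposide and doxorubicin that act on TOP2, the tyrosyl-DNA phosphodiesterases TDP1 and TDP2 cut the protein off, TDP1 mainly for TOP1 and TDP2 mainly for TOP2. Ki-67, encoded by MKI67, coats mitotic chromosomes, keeps them apart, and is the protein that pathologists stain to count cycling cells.

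TOP2A, MKI67 and TDP1 were lower with PD0332991, and TOP1, TOP2B, TOP3B and TDP2 did not pass the test. In limma, at an adjusted p under 0.05 (Benjamini-Hochberg, all genes), 3 of the 7 genes were lower, where 13.6% of all genes were. None of the 7 was higher, against 15.6% of all genes, and none had a positive change at an unadjusted p under 0.05. TOP2A and MKI67 were also among the 505 genes called lower by at least 2-fold, which are 2.55% of all genes. The median log2 fold change was −0.17 over the 7 genes and 0.01 over all genes. Fold changes are of log2(intensity + 16), where the added 16 understates changes of dim probe sets. In RNA from a whole culture, fewer cells carrying an RNA and less of it per cell cannot be told apart.

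**Figure D1:**
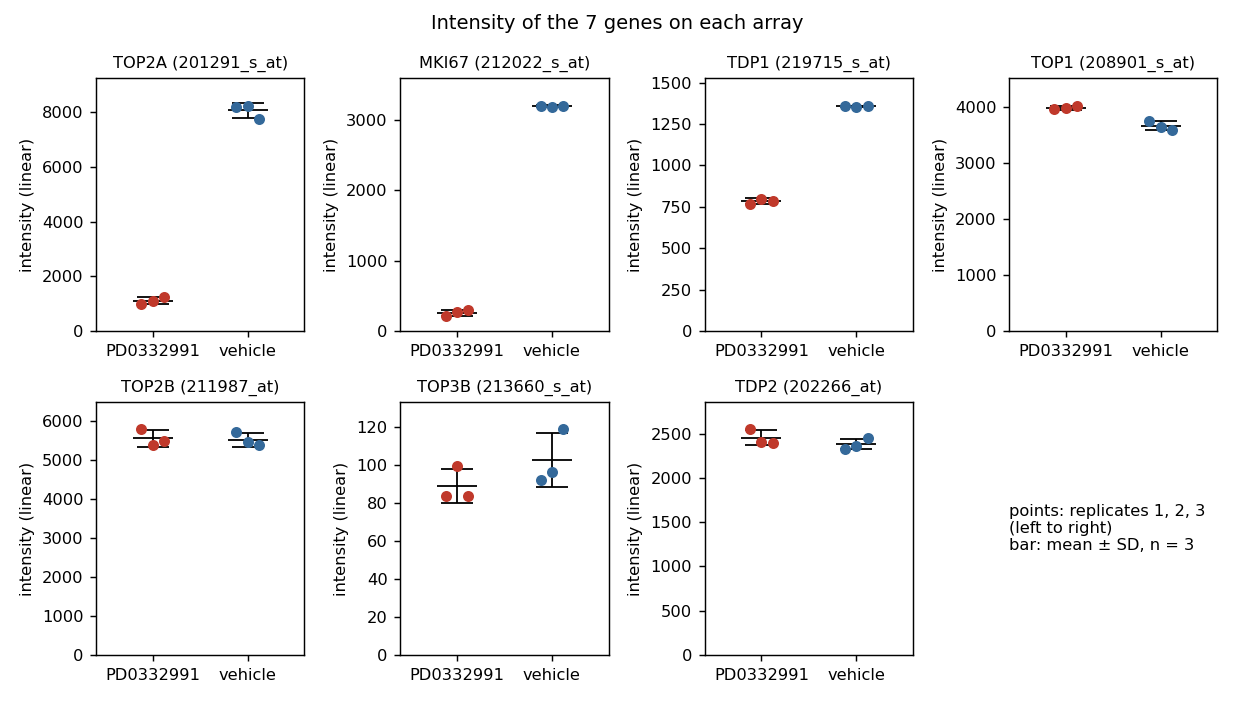
Linear intensity of each gene's brightest probe set on every array, with PD0332991 replicates left of vehicle replicates, points for arrays and bars for mean ± SD (n = 3). TOP2A, MKI67 and TDP1 are separated by wide gaps, TOP1 lies slightly higher on the PD0332991 arrays, and TOP2B, TOP3B and TDP2 overlap.

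Promoter sequences of the type II topoisomerase genes and of MKI67 are shown first. They were picked because TOP2A and MKI67 were lower together while TOP2B was not called, and the window of TDP1, also lower, is not shown. The sequences are the 250 bases before an annotated transcription start, from RefSeq on GRCh38.p14, read 5′ to 3′ on the gene's own strand, which is the minus strand for all 3. Capitals mark matches on either strand to the CHR letters TTTGAA or TTCGAA (the reverse complement of the first reads TTCAAA) and to the NF-Y box letters CCAAT (reverse complement ATTGG). The CHR is known as an element of promoters active in G2 and mitosis, and NF-Y is a factor that binds CCAAT.
TOP2A, chr17:40417897-40418146: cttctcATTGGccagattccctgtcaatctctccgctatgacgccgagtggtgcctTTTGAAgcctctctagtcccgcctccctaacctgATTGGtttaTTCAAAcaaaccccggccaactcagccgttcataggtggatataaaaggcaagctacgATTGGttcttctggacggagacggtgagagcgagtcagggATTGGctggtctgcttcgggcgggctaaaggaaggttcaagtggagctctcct
MKI67, chr10:128126424-128126673: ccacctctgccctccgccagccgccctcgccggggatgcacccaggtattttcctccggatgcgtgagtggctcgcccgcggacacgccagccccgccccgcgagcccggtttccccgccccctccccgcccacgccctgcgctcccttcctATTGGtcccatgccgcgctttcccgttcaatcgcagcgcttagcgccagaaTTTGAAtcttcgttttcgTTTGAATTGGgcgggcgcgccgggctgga
TOP2B, upstream start, chr3:25664908-25665157: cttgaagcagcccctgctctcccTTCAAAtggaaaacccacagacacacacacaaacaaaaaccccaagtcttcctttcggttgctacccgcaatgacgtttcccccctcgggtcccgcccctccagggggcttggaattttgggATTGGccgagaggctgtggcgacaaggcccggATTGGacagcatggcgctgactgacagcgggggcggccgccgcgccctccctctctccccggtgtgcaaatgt

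The TOP2A window held 4 NF-Y box matches, all in reverse, and 2 CHR matches. Of 35116 such windows over all genes, 0.874% held at least 4 NF-Y box matches, 9.53% at least 2 NF-Y box matches and 1.90% at least 2 CHR matches. MKI67 held 2 CHR matches, which begin 47 and 29 bases before the start, and 2 NF-Y box matches, of which the one nearer the start shares a base with the nearer CHR match. In TOP2B, the upstream of its 2 annotated starts had 1 CHR match, 227 bases before the start, and 2 NF-Y box matches, and the downstream start had neither. TDP1 had 1 CHR match, 30 bases before the start, and no NF-Y box match. TOP1, TOP3B and TDP2 had no match to either. Over all windows, 14.3% held a CHR match, 32.0% an NF-Y box match and 5.05% both. Letters of the E2F form (any of TTCCCGC or TTGGCGC or TTCGCGC or TTGCCGC on either strand) were in 10.9% of all windows and in none of these genes' windows. A match says only that the letters are present in the window, and any bearing on the RNA changes was not tested.

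**Figure D2:**
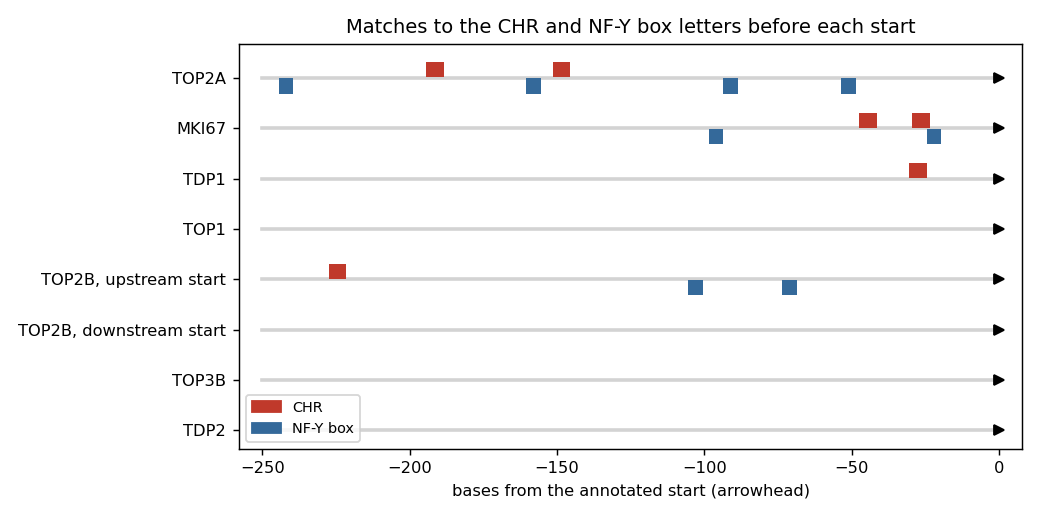
Position of CHR (upper, red) and NF-Y box (lower, blue) matches in the 250 bases before each annotated start, in bases from the start, with 1 line per start. TOP2A carries 4 NF-Y box and 2 CHR matches, MKI67 has both of its CHR matches within 47 bases of the start, and TOP1, TOP3B, TDP2 and the downstream TOP2B start carry none.

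TOP2A, the enzyme of dividing cells, fell 7.16-fold. Its brightest probe set, 201291_s_at, had intensities of 1001, 1102 and 1240 in PD0332991 replicates 1 to 3, against 8193, 8231 and 7741 in vehicle replicates 1 to 3. Every PD0332991 array lay far below every vehicle array, and what was left was 13.8% ± 1.49 (SD, n = 3) of the vehicle mean. The log2 fold change of TOP2A was −2.84 (SE 0.09, 95% interval −3.06 to −2.62, limma adjusted p = 2.4e-05), and 0.344% of all genes had a lower one. The other TOP2A probe sets fell as well. Probe set 201292_at averaged 665 ± 72.7 with PD0332991 and 6031 ± 339 with vehicle (SD, n = 3 each), which is a log2 fold change of −3.16. The dim probe set 237469_at gave 12.8, 17.6 and 32.5 with PD0332991, against 354, 358 and 346 with vehicle. Its PD0332991 values lie around the added 16, which largely sets its log2 fold change of −3.35, and with 1 or 64 added the change was −4.11 or −2.30.

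MKI67 fell 11.8-fold, the largest change of the 7 genes on the brightest probe sets, and 0.0253% of all genes had a lower log2 fold change. Probe set 212022_s_at read 209, 266 and 298 in the PD0332991 replicates, against 3190, 3174 and 3199 in the vehicle replicates. The groups were far apart, and 8.08% ± 1.41 (SD, n = 3) of the vehicle mean was left. The log2 fold change of MKI67 was −3.56 (SE 0.12, 95% interval −3.87 to −3.26, limma adjusted p = 2.4e-05), and this interval does not overlap that of TOP2A on its brightest probe set. The intervals of the other TOP2A probe sets, −3.40 to −2.92 and −3.81 to −2.90, do overlap it. How clearly these genes are separated therefore depends on the probe set. Every MKI67 probe set still had a lower log2 fold change than every TOP2A probe set. The closest values were −3.358 for MKI67 probe set 212021_s_at and −3.354 for TOP2A probe set 237469_at. With 1 added to the intensities, this order turned for 237469_at only. It was then at −4.11, against −3.81 for the lowest MKI67 probe set, 212020_s_at.

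The other MKI67 probe sets gave similar changes. Probe set 212023_s_at averaged 136 ± 16.3 with PD0332991 and 1759 ± 59.3 with vehicle (SD, n = 3 each). Probe set 212021_s_at averaged 145 ± 3.35 with PD0332991 and 1636 ± 121 with vehicle (SD, n = 3 each). Probe set 212020_s_at averaged 65.7 ± 15.7 with PD0332991 and 919 ± 51.1 with vehicle (SD, n = 3 each). The log2 fold changes of the 4 probe sets lay between −3.56 and −3.36, and the share left lay between 7.15% and 8.85% of the vehicle mean. All 4 IDs end in _s_at, a suffix for probe sets that can match several transcripts, so no result for MKI67 was obtained without such probe sets.

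TDP1, which frees DNA ends from trapped TOP1, fell 1.72-fold. Probe set 219715_s_at read 765, 800 and 786 with PD0332991, against 1356, 1350 and 1361 with vehicle. The replicates were tight, the groups did not overlap, and 57.8% ± 1.28 (SD, n = 3) of the vehicle mean was left. The log2 fold change of TDP1 was −0.78 (SE 0.05, 95% interval −0.90 to −0.66, limma adjusted p = 1.7e-04), with 3.70% of all genes lower. A dimmer probe set, 226044_at, averaged 352 ± 9.19 with PD0332991 and 651 ± 17.5 with vehicle (SD, n = 3 each), which is a log2 fold change of −0.86. The last TDP1 probe set, 240822_at, stayed between 1.1 and 10.72 on all 6 arrays, below the added 16, and did not pass. Averaging all 3 TDP1 probe sets gave a log2 fold change of −0.59.

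TDP2, which acts on trapped TOP2, did not pass. Its only probe set, 202266_at, read 2551, 2409 and 2399 with PD0332991, against 2333, 2367 and 2453 with vehicle. The groups overlapped, and the log2 fold change of TDP2 was 0.04 (95% interval −0.10 to 0.18, limma adjusted p = 0.665). This interval lies wholly above that of TDP1.

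TOP2B, the paralog of TOP2A, did not pass either. Probe set 211987_at had intensities of 5788, 5378 and 5490 in PD0332991 replicates 1 to 3, against 5724, 5459 and 5381 in vehicle replicates 1 to 3. The arrays of the groups were interleaved, and the log2 fold change of TOP2B was 0.0077 (SE 0.06, 95% interval −0.14 to 0.15, limma adjusted p = 0.945), with a sign that turned when PD0332991 replicate 1 or vehicle replicate 2 or 3 was left out and with median centring. The unequal change of the paralogs was taken within each array as log2 TOP2A minus log2 TOP2B. This difference was −2.30 ± 0.19 with PD0332991 and 0.54 ± 0.04 with vehicle (SD, n = 3 each). It differed by −2.85 between the groups, lower on all 3 PD0332991 arrays than on any vehicle array, and an exact permutation test (two-sided) gave p = 0.1, which is as low as 3 arrays a group can go.

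TOP1, the enzyme that works in front of polymerases, was slightly higher on every PD0332991 array without passing. Probe set 208901_s_at read 3948, 3971 and 4018 with PD0332991, against 3744, 3639 and 3584 with vehicle. The groups did not overlap, but the gap was small, with a log2 fold change of 0.12 (SE 0.05, 95% interval −0.0022 to 0.25, limma adjusted p = 0.135). The other TOP1 probe set, 208900_s_at, read 3634, 3555 and 3836 with PD0332991, against 3480, 3548 and 3298 with vehicle. It did not overlap either, by a narrow margin, and had a log2 fold change of 0.09. TOP1 passed with a variance trend (adjusted p = 0.021) and when only brighter genes were tested (adjusted p = 0.047).

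TOP3B, which acts on RNA as well as DNA, did not pass. Probe set 213660_s_at read 83.8, 99.3 and 83.9 with PD0332991, against 92.2, 96.4 and 119 with vehicle. The groups overlapped, with a log2 fold change of −0.17 (95% interval −0.44 to 0.09, limma adjusted p = 0.315), and of −0.07 without vehicle replicate 3. The second TOP3B probe set, 215781_s_at, averaged 48.8 ± 4.65 with PD0332991 and 47.8 ± 6.70 with vehicle (SD, n = 3 each), which is a log2 fold change of 0.03, so the probe sets differ in sign and neither passed.

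Ordered by log2 fold change, the genes ran MKI67, TOP2A, TDP1, TOP3B, TOP2B, TDP2 and TOP1. On the brightest probe sets, the 95% intervals of MKI67, TOP2A and TDP1 did not overlap each other or those of the other 4 genes, whose intervals all overlapped one another. The groups did not overlap for 4 of the 7 genes, TOP1 being the fourth, against 43.0% of all genes. Fitted over all 54613 probe sets, 9 of the 16 probe sets were lower, against 10.2% of all, and none was higher, against 10.7% of all, also at an unadjusted p under 0.05. Groups did not overlap for 11 of the 16, against 36.7% of all probe sets. Probe sets of 1 gene share its RNA and are not replicates.

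**Figure D3:**
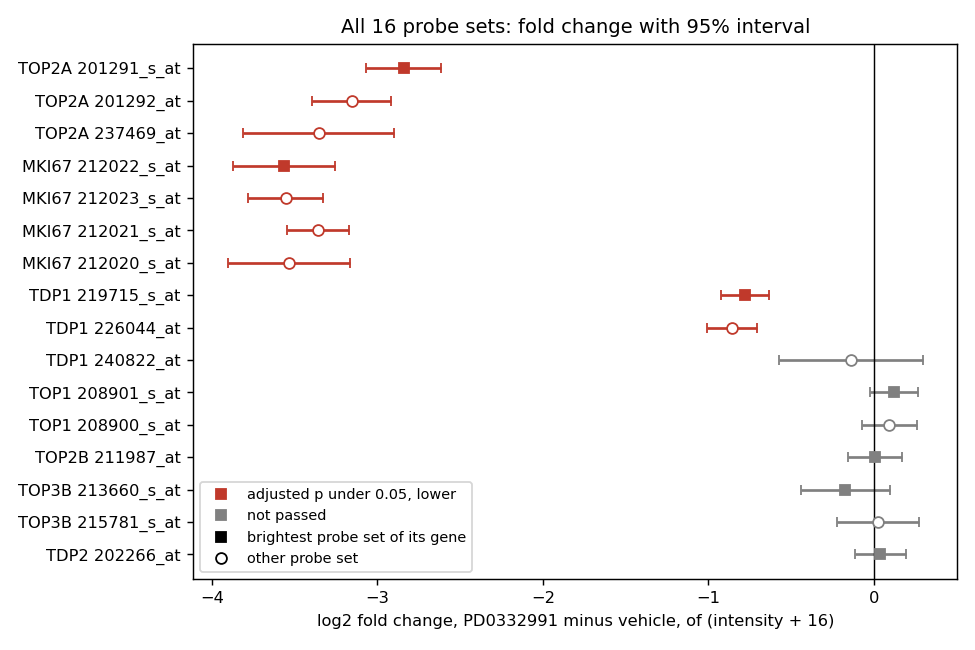
Log2 fold change, PD0332991 minus vehicle, with 95% interval for each of the 16 probe sets, from the fit over all probe sets; red passed the test as lower, grey did not pass, and filled squares stand for the gene. The 3 TOP2A and 4 MKI67 probe sets lie near −3, 2 of 3 TDP1 probe sets lie between −0.86 and −0.78, and the rest have intervals that include 0.

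**Figure D4:**
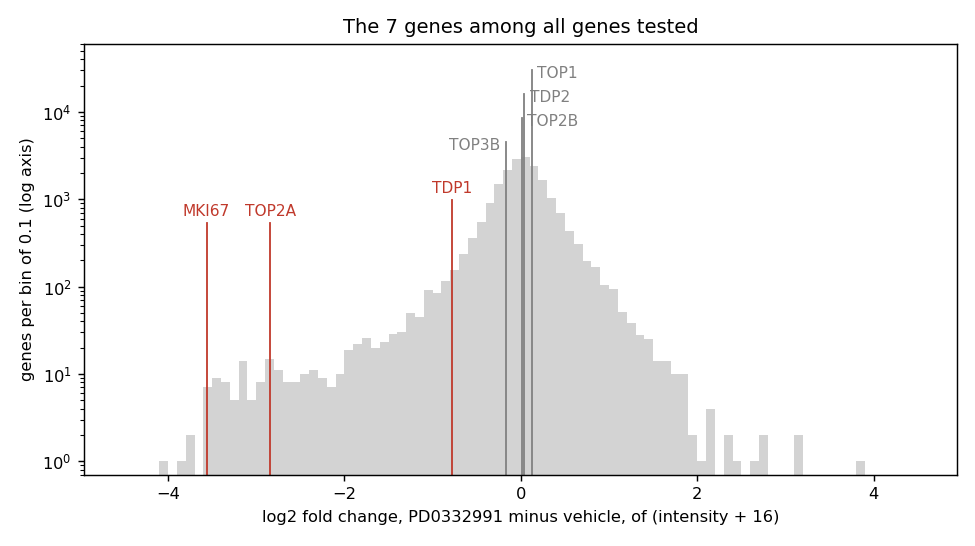
Number of genes per bin of log2 fold change over all 19775 genes (grey, log axis), with a line at each of the 7 genes, red where lower and grey where not passed; line heights only place the labels. MKI67 and TOP2A lie in the thin tail of large decreases, TDP1 on its shoulder, and the other 4 near the peak.

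Within the PD0332991 group, the remaining TOP2A and MKI67 signal differed between replicates in a like way. On the brightest probe sets of both genes it was lowest in PD0332991 replicate 1 and highest in PD0332991 replicate 3, a range of 12.4% to 15.4% of the vehicle mean for TOP2A and of 6.57% to 9.34% for MKI67. The same replicates were lowest and highest for all 9 proliferation marker genes described next. Of the 505 genes lower by at least 2-fold, 339 were lowest in PD0332991 replicate 1 and 307 highest in PD0332991 replicate 3. The order was not counted over all genes. MKI67 probe set 212021_s_at departed from it, with 8.63%, 9.03% and 8.90% left in PD0332991 replicates 1 to 3.

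The genes whose values moved most like TOP2A over the 6 arrays were CCNA2, DEPDC1B and CDCA2. Likeness was the root mean square difference of log2 values after each gene was centred on its own mean, among the brighter genes. It was 0.02 for CCNA2, which encodes cyclin A2 of S phase and G2, and 0.03 each for DEPDC1B and for CDCA2, a phosphatase subunit of mitotic chromosomes. Most like MKI67 was ESPL1, the separase that cuts cohesin at anaphase, with 0.05. SPC25, a kinetochore subunit, and E2F7, a repressor of the E2F family, followed with 0.06 each. On its brightest probe set, which this likeness used, E2F7 was at −3.49, against −2.17 with its probe sets averaged. With 2 groups of arrays, this likeness is set mostly by the size of the change between them.

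The proliferation marker genes, used beside Ki-67 to gauge cell division, all fell. Of PCNA, MCM2, CCNB1, AURKA, BIRC5, MYBL2, RRM2, UBE2C and CDC20, 9 of 9 were lower and none higher in limma, none also before adjustment (p under 0.05), while 13.6% of all genes were lower and 15.6% higher. Their median log2 fold change was −2.78, against 0.01 for all genes. This list, like the others, was chosen with earlier results of these data known, so its count is no independent support. The lowest log2 fold change was −3.54 for CDC20, which switches on the anaphase ubiquitin ligase. Next were −3.30 for the survivin gene BIRC5 and −3.00 for the transcription factor gene MYBL2. BIRC5 was at −2.87 with its probe sets averaged, and at −2.32 once IDs with _x_at or _s_at were dropped. MKI67 at −3.56 lay beside CDC20 at the low end of these genes, and TOP2A at −2.84 lay among them.

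Of the genes for the other topoisomerases and the partners of TOP3 enzymes, 6 of 9 were lower in limma. None was higher and 3 did not pass, where 13.6% of all genes were lower and 15.6% higher. The median log2 fold change was −0.37. At an unadjusted p under 0.05, 1 was higher. The decreases were largest in the complex that dissolves joined DNA molecules together with TOP3A. RMI2, a subunit of it, averaged 148 ± 22.8 with PD0332991 and 642 ± 37.2 with vehicle (SD, n = 3 each), 4.03-fold lower. The helicase gene BLM fell 3.90-fold and RMI1, the other small subunit, 2.75-fold. TOP3A itself, named after its value was seen, averaged 135 ± 20.8 with PD0332991 and 235 ± 27.6 with vehicle (SD, n = 3 each), which is a log2 fold change of −0.74 (limma adjusted p = 0.0075). TDRD3, the scaffold that binds TOP3B, was at −0.25 (limma adjusted p = 0.026) and did not pass when any array other than PD0332991 replicate 3 was left out (adjusted p 0.053 to 0.090). FXR1, a relative of the TOP3B partner FMRP, was at −0.37, while FMR1 itself at −0.13 and FXR2 at 0.27 did not pass, these 4 being named after their values were seen. FXR1 did not pass with its probe sets averaged (−0.14, adjusted p = 0.131) or once IDs with _x_at or _s_at were dropped (−0.19, adjusted p = 0.123). FXR2 passed without vehicle replicate 3 (adjusted p = 0.019), among brighter genes (adjusted p = 0.029) and with its probe sets averaged (adjusted p = 0.041). TOP1MT, the mitochondrial topoisomerase, also named after its value was seen, was at 0.0071 and did not pass.

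Among genes that repair topoisomerase-DNA adducts, 20 of 23 were measured and the other 3 were not analysed here. Of the 20, 7 were lower, 3 higher and 10 did not pass, where of all genes 13.6% were lower and 15.6% higher. The median log2 fold change was −0.07. EME1, a subunit of a nuclease that acts on stalled forks, fell by 1.49 on the log2 scale, and MRE11, the nuclease that can cut TOP2 from DNA ends, was at −0.89, or at −0.52 (adjusted p = 0.0011) with its probe sets averaged. LIG4, the ligase of end joining, averaged 2057 ± 113 with PD0332991 and 1096 ± 56.2 with vehicle (SD, n = 3 each). Its log2 fold change was 0.90 (limma adjusted p = 3.2e-04). In the same list XRCC4 was lower at −0.89 (limma adjusted p = 0.0013) and XRCC6 at −0.40 (limma adjusted p = 0.0024). XRCC5 at −0.07 and PRKDC at −0.22 did not pass. These genes were named after their values were seen. ERCC4, a nuclease gene, was at 0.42 (limma adjusted p = 0.049), and did not pass when any array other than PD0332991 replicate 2 was left out (adjusted p 0.062 to 0.138) or with its probe sets averaged (0.27, adjusted p = 0.130). NBN, a partner of MRE11 named after its value was seen, was at 0.37, and at 0.12 (adjusted p = 0.447) on the probe set used once IDs with _x_at or _s_at were dropped.

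Of the genes for proteins that share the surface layer of mitotic chromosomes with Ki-67, 9 of 10 were measured. The remaining 1 was not analysed here. With PD0332991, 3 of the 9 were lower, 1 was higher and 5 did not pass, against 13.6% lower and 15.6% higher over all genes. The median log2 fold change was −0.03. CDCA2, which brings a phosphatase to chromosomes, averaged 256 ± 29.3 with PD0332991 and 1862 ± 63.4 with vehicle (SD, n = 3 each), 6.92-fold lower. The phosphatase gene PPP1CC fell by 0.42 on the log2 scale. PES1, a ribosome assembly factor, rose by 0.28 (limma adjusted p = 0.010), with adjusted p = 0.069 when its probe sets were averaged. The fibrillarin gene FBL, named after its value was seen, was at −0.18 (limma adjusted p = 0.049) and did not pass when any of the 6 arrays was left out (adjusted p 0.068 to 0.152). NIFK, which binds Ki-67 directly and was named in the same way, was at 0.11 and did not pass.

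**Figure D5:**
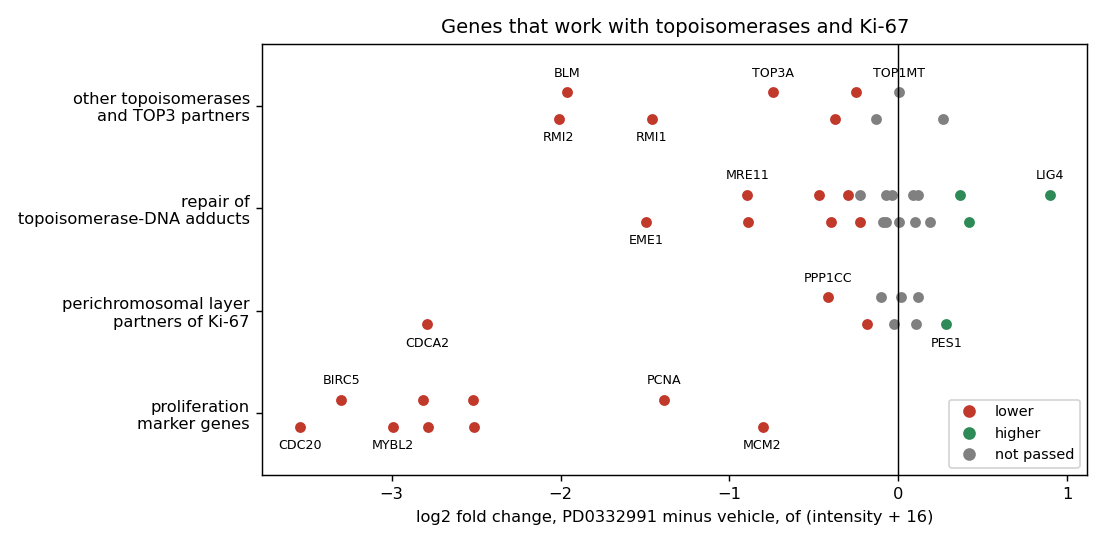
Log2 fold change, PD0332991 minus vehicle, of each measured gene in 4 lists, 1 point per gene, red where lower, green where higher and grey where not passed. All 9 proliferation markers lie left of 0, the TOP3A partners BLM, RMI1 and RMI2 lie between −2.01 and −1.46, and CDCA2 at −2.79 stands apart from the other partners of Ki-67.

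On all arrays the T-cell and thymocyte markers were present, 10 of 10 with a mean intensity over the 6 arrays above 100. Their summed intensity was 32805 to 34128 with PD0332991 and 27074 to 28989 with vehicle. In limma, CD3E, CD3G, CD2, PTCRA, CD1A and LCK were higher, while CD3D, CD7, CD5 and CD1E did not pass. The largest log2 fold changes were 1.04 for CD1A and 0.81 for CD2. Of 3 B-cell markers measured, CD79A alone had a mean over all 6 arrays above 100, at a mean of 543 with PD0332991 and 275 with vehicle. It was higher (limma adjusted p = 0.0028). The B-cell list summed to 550 to 721 with PD0332991 and 324 to 397 with vehicle. The lists of 4 myeloid, 3 fibroblast and 3 epithelial markers had no member with such a mean above 100. The myeloid gene MPO averaged 83.8 with PD0332991 and 104 with vehicle and was lower (limma adjusted p = 0.023), and its list summed to 167 to 182 with PD0332991 and 196 to 203 with vehicle. Of 2 erythroid markers HBB was above 100, at 167 with PD0332991 and 175 with vehicle. No marker was at 0, and the part of these shifts in the results above was not tested. Array medians lay between 49.1 and 54.3, and log2 values correlated at Pearson r 0.993 to 0.996 between arrays within a group and 0.976 to 0.979 between groups, taken over genes, which are no replicates.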

How the data were processed

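The deposited table holds linear intensities per probe set, from biotin-labelled RNA on one-colour Affymetrix arrays per the labels' protocols, which the authors had summarised and scaled. Their method is not given in the sources. Values ran from 0.56 to 16362, and array means trimmed by 2% at each end lay between 282 and 294, so nothing further was normalized. There are no detection calls or scan dates, the scale is relative within each array, and precision is limited by having 3 arrays a group.

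The 62 control probe sets were left out. The platform annotation of 2016 gave 1 symbol for 41091 of the other 54613, several for 1801 and none for 11721, and symbols were updated by gene ID through RefSeq. Groups were compared on log2(intensity + 16) with limma 3.58.1 in R 4.3.3 (lmFit, eBayes, two-sided, 4 residual degrees of freedom). Adjusted p-values are Benjamini-Hochberg over the 19775 genes, or over all probe sets where said. The code was tested on simulated data. The members and lists were chosen with earlier results of these data known. Named were all members, up to 3 called genes per list with the largest changes, up to 2 called against the direction of most, and the 3 genes most like each member lower by at least 2-fold. Figures used matplotlib 3.10.9. Alternatives were the replicate block, leaving out each array, quantile normalization, median centring, brighter genes only (mean above the median gene), the mean of probe sets, no probe sets ending in _x_at or _s_at, eBayes with trend or robust, 1 or 64 added, and adjustment over all probe sets.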

Additional observations from a re-analysis of the deposited data

How the results depend on the processing

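TOP2A, MKI67 and TDP1 stayed lower and past the threshold under every alternative that measured them, with log2 fold changes from −3.16 to −2.77, −3.67 to −3.35 and −0.86 to −0.59. TOP1, TOP3B and MKI67 have no value once IDs with _x_at or _s_at were dropped, since all of theirs end in _s_at. TOP1 at 0.12 passed among brighter genes (adjusted p = 0.047) and with a trend (0.021), which gave 1 higher member in each case and 1 higher member probe set with the trend. TOP2B ran from −0.0226 to 0.0338 with 1 array left out and was at −0.0036 with median centring, and none of these passed. TOP3B ran from −0.24 to −0.07 with 1 array left out and was at −0.07 with probe sets averaged, none of which passed. With 1 array left out, probe set 215781_s_at of TOP3B ran from −0.0386 to 0.108 and 240822_at of TDP1 from −0.292 to 0.0336. TOP2A minus TOP2B ran from −2.93 to −2.74 with 1 array left out, where the smallest exact permutation p is 0.2. Higher members of the TOP3 partner list numbered 1 among brighter genes, with probe sets averaged and without vehicle replicate 3, a range of 0 to 1 with 1 array left out. Higher members of the adduct repair list numbered 1 once IDs with _x_at or _s_at were dropped. Higher partners of Ki-67 numbered 0 with the mean of probe sets and 2 with a trend. Lower partners of Ki-67 numbered 2 with any array left out, with quantile normalization and with median centring, against 3 in the main fit. With 1 array left out, lower members numbered 5 to 6 in the TOP3 partner list and 5 to 8 in the adduct repair list. The TOP3 partner list had 4 lower once IDs with _x_at or _s_at were dropped. The replicate block left TOP2A at adjusted p = 0.0018, TDP1 at 0.0045 and TOP1 at 0.237. Deviations of same-numbered arrays correlated at 0.131, 0.0834 and 0.0928, and each array correlated best with its own number, a hint from the data and not from the design, so the block is not the basis of any result. It changed the call of TDRD3 (0.073) and FBL (0.102) and of no other named gene. The cause of these changes was not tested. Without detection calls, low signal and background look alike, which limits what 240822_at, 237469_at with PD0332991 and TOP3B can show.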
